A study of Mus musculus with 4 samples.

Results

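In ribosome footprints of the mouse brain, 601 transcripts were chosen for high region a counts relative to region b, and these regions are described here. Each transcript of the series was counted in up to 4 regions, lettered a to d. A transcript entered the set when its region b held at least 1000 counts, summed over all 4 libraries, and its region a held at least 20% as many. Of 23175 transcripts with any count, 7382 had at least 1000 region b counts and 605 of these met the rule. After 4 repeats with the same region a and region b counts in every library were removed, 601 of 7279 transcripts (8.26%) remained.

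The footprints came from C57BL/6J mouse brains taken on postnatal day 21. Neuron libraries came from the Snap25::eGFP-RpL10a line and astrocyte pools from the Aldh1l1::eGFP-RpL10a line, in which a GFP-tagged protein of the large ribosomal subunit is made in the cells where the Snap25 or the Aldh1l1 promoter drives it. Antibodies to GFP pulled out the tagged ribosomes in the presence of cycloheximide, which stalls translating ribosomes, and the footprints were trimmed on the beads with RNase I, per the labels' protocols. There were 4 libraries, 2 per cell type, and each came from its own pool of 2 brains. Library totals ranged from 7210269 counts (neuron 1) to 12833187 counts (neuron 2). The p-values below measure the spread between pools.

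In eukaryotic translation the small ribosomal subunit scans the leader of a messenger RNA from its cap and usually starts at the first well-placed AUG. Footprints ahead of the main reading frame can come from short upstream reading frames, which often lower the yield of the main protein, or from starts at codons other than AUG, which can lengthen the protein at its amino end. The sources used here do not define the letters. Region b holds most counts, and with the letters taken to run along the transcript, region a is read here as the stretch ahead of region b and region b as the main reading frame. That reading is an assumption. Region lengths are not given, so a ratio of counts is not a ratio of footprint densities. The files name transcripts by Ensembl identifiers only and the gene tables at hand hold no transcript identifiers, so 0 could be matched to a gene. No gene function or sequence is therefore given, and the labelled cell types could not be checked against marker genes.

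The values that chose the members are a description and carry no test. Region a counts of the members ranged from 20.01% to 215% of region b, with a median of 29.4% and quartiles of 23.3% and 40.3%. Over all 7279 transcripts the median was 4.27%. Most members lay low in this range, with 313 under 30%, 198 from 30% to under 50%, 75 from 50% to under 100% and 15 at or above 100%. The threshold cut through a continuous distribution. The 5 members nearest to it lay at 20.01% to 20.04% and the 5 transcripts just outside at 19.92% to 19.99%, and 360 transcripts lay from 15% to under 20% against 200 members from 20% to under 25%. The plot of region a against region b shows no gap along the line of 20%.

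**Figure D1:**
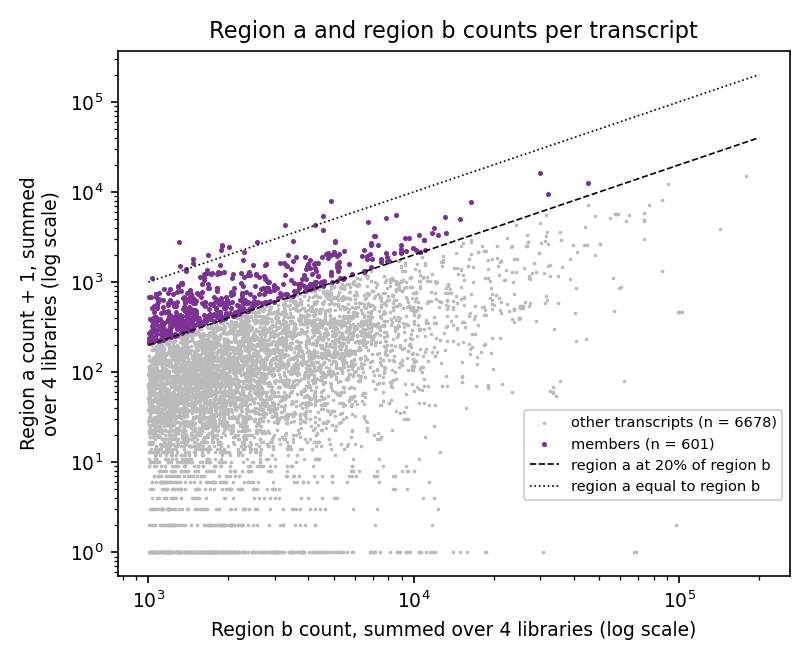
Region a count plus 1 against region b count of each transcript, both summed over the 4 libraries and on log scales; purple points are the 601 members, grey points the 6678 other transcripts with at least 1000 region b counts, and the lines mark region a at 20% of region b and equal to region b. The members form the upper edge of one continuous cloud, and 15 of them lie on or above the line of equal counts.

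Region a exceeded region b in 15 members, of which 9 did so in every library. The strongest was ENSMUST00000036267. It had 899 and 1008 region a counts in astrocyte pools 1 and 2, against 363 and 544 in neuron pools 1 and 2, beside 357, 405, 229 and 318 region b counts. Region a was thus 251.8% and 248.9% of region b in the astrocyte pools and 158.5% and 171.1% in the neuron pools, so the groups did not overlap. This difference of the ratio did not pass the edgeR test described below (log2 change -0.60, SE 0.239, edgeR adjusted p = 0.252). The 95% Wilson interval, taken on the share of region a in both regions and turned back into a percentage of region b, was 222.8% to 284.6% in astrocyte 1 and 134.4% to 187% in neuron 1. These intervals cover counting error only.

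ENSMUST00000026221 had the most region a counts of these 15, with 2821 and 3304 in the astrocyte pools and 669 and 1060 in neuron 1 and 2. Its region a measured 173.3% and 198.7% of region b in astrocyte pools 1 and 2, against 116.8% and 103.3% in neuron pools 1 and 2, again without overlap. ENSMUST00000110329 measured 161.3% and 184.4% in the astrocyte and 147.8% and 102.7% in the neuron pools, a wide spread between the neuron pools. ENSMUST00000022819 and ENSMUST00000109494, picked after their values were seen, were nearly level across the pools. ENSMUST00000022819 measured 118.6% and 116.2% in the astrocyte and 118.5% and 124.1% in the neuron pools, and ENSMUST00000109494 measured 104.3% and 105.6% against 100.7% and 111.4%. In both, the 4 libraries lay closer together than the intervals of a single library were wide. Of the 15, 12 had a lower ratio in neurons, with a median log2 change of -0.39, and the test called none of them. In all 15, region a held from 79.94% to 251.8% of region b in any library, as the plot of these members shows.

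**Figure D2:**
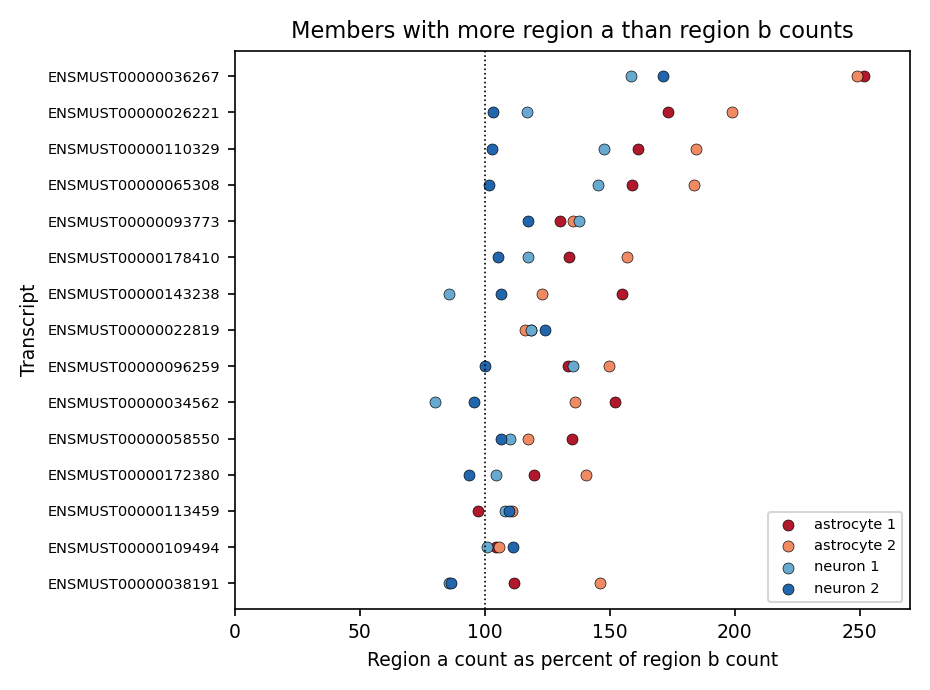
Region a count as a percentage of region b count, on the horizontal axis, in each of the 4 libraries for the 15 members whose summed region a count was at least that of region b; red shades are astrocyte and blue shades neuron pools, and the dotted line marks equal counts. Points lie between 79.94% and 251.8%, and the top transcript stands at 158.5% or more in every library.

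By number of footprints, other members stood first. ENSMUST00000034215 held the most region a counts, 6894 and 7421 in the astrocyte and 898 and 816 in the neuron pools. Although the counts lay several-fold apart between the cell types, region a stayed at 57.91% and 49.03% of region b in the astrocyte and 56.66% and 63.75% in the neuron pools. ENSMUST00000174710, next in rank, was the most level of the abundant members, with 28.14% and 27.84% in the astrocyte and 28.77% and 27.62% in the neuron pools. ENSMUST00000065668 measured 30.11% and 29.2% against 33.02% and 26.17%, with its highest and lowest values both in neurons. The 10 members with the most region a counts gave 17.9% and 17.6% of the members' region a counts in the astrocyte pools and 11.8% and 8.77% in neuron 1 and 2.

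The members made up a near constant part of the series. They held 22.7% and 22.8% of all region a counts in the astrocyte and 23.1% and 22.6% in the neuron pools, against 5.28%, 5.39%, 5.16% and 5.15% of all region b counts in the same order. Members were more common among less abundant transcripts. They were 10.01% of the 3436 transcripts with 1000 to under 2000 region b counts (344 members), 7.25% of those up to 5000, 6.1% of those up to 10000 and 4.28% of the 397 above (17 members). The median over all transcripts of these classes was 4.62% in the first and 3.57% in the last. As the ratio has region b in its denominator, these shares are a description.

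Many members describe the same footprints more than once. Grouped by identical counts of region a or of region b in all libraries, the 601 members formed 487 sets, 401 of a single member and 86 of 2 or more. Members with nearly equal counts stay in separate sets, so the number of sets may still count some footprints more than once. ENSMUST00000017576 and ENSMUST00000120061, for example, held 1803 and 1811 region a counts and 6982 and 6663 region b counts. The largest set had 7 members with the same 598 region a counts and with 1281 to 2585 region b counts, which put them between 23.13% and 46.68%. Conversely, ENSMUST00000108634 and ENSMUST00000056484 shared their 3353 region b counts but held 2006 and 708 region a counts, 59.83% and 21.12%. In 77 members (12.8%) a transcript with identical region b counts fell below the rule, and in 27 of them it lay below 5%. ENSMUST00000020775, with region a at 33.5% of region b, has such a partner at 0.0252%. Other members described here also share their region b counts with a transcript below the rule. The lowest lay at 7.96% for ENSMUST00000022819, 8.05% for ENSMUST00000034076 and 8.48% for ENSMUST00000093773. For ENSMUST00000051087 and ENSMUST00000174710 it lay at 14% and 15.8%.

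The first comparison asked whether neurons and astrocytes differ in the level of region a relative to region b. The rule summed over the cell types and did not use their split, but a member can meet it through a single cell type. In nearly all members no difference passed the test. In simulated counts this test recovered 38% of 2-fold changes, so a missing call does not show an equal ratio. The ratio changed in 7 of the 601 members, or 5 sets, by an edgeR quasi-likelihood test of region and cell type adjusted over 8778 transcripts, and in all 7 it was higher in astrocytes. That is 1.16% of the members, where 1.08% of all tested transcripts were called, 1.01% as higher in astrocytes and 0.0684% as higher in neurons. Among tested transcripts with 1000 or more region b counts 1.59% were called, 1.49% and 0.0957% by direction. The share among the members is therefore near the background. Neither edgeR nor DESeq2 called a member as higher in neurons, where edgeR called 0.0684% and DESeq2 0% of all tested. All 601 members passed the filter on low counts. At an unadjusted p under 0.05 there were 76 members (12.6%), against 12.3% of all tested.

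The strongest change was in ENSMUST00000027377. It had 241 and 259 region a counts in astrocyte pools 1 and 2, against 93 and 143 in neuron pools 1 and 2, while its region b had 664, 794, 667 and 1194. Region a therefore measured 36.3% and 32.62% of region b in the astrocyte and 13.94% and 11.98% in the neuron pools, means of 34.5% ± 2.6 and 13% ± 1.39 (SD, n = 2 each). The log2 change, neuron over astrocyte, was -1.42 (SE 0.254, edgeR adjusted p = 0.000642), and the level of region b itself did not pass the test (log2 change -0.18, edgeR adjusted p = 0.443). In ENSMUST00000055518 region a fell from 35.59% and 35.73% in the astrocyte to 18.91% and 14.8% in the neuron pools. Its log2 change was -1.10 (SE 0.267, edgeR adjusted p = 0.0174), also without a called change of region b (edgeR adjusted p = 0.324). DESeq2 gave the same log2 change of -1.10 with an adjusted p of 0.235, and the call was also lost without astrocyte 1, astrocyte 2 or neuron 2 (edgeR adjusted p = 0.323, 0.611 and 0.2). The log2 changes of the 7 ranged in size from 1.03 to 1.42, and all 7 lay under 25% over all libraries, the lowest part of the members. Taking 1 member of each of the 5 sets, astrocyte means were 29.5% to 35.66% and neuron means 12.96% to 18.78%. These members thus met the rule of 20% through their astrocyte pools, so their direction is not independent of the rule.

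These calls hung on single libraries, as did those over all tested transcripts. With a library left out, 1 cell type rests on a single pool. Without astrocyte 1 or astrocyte 2 the log2 change of ENSMUST00000027377 was -1.34 and -1.49, and its call was lost in both fits. Without neuron 1 or neuron 2 the call stayed. DESeq2 called 1 member (0.166%, beside 0.114% of all tested).

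**Figure D3:**
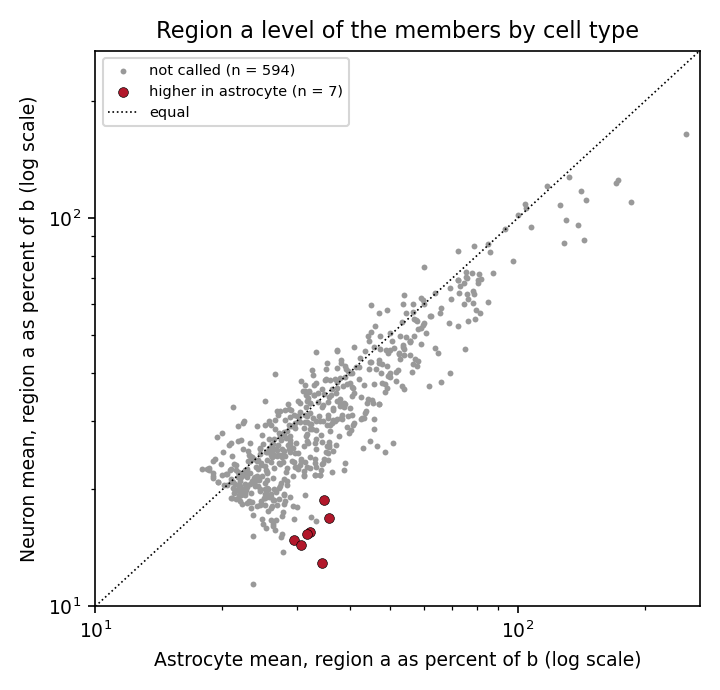
Region a as a percentage of region b for each of the 601 members, mean of the 2 astrocyte pools on the horizontal and mean of the 2 neuron pools on the vertical axis, both on log scales; red points are the 7 members called by the edgeR test and the dotted line marks equal levels. The points follow the line with a small shift to the astrocyte side, and the called members lie among those farthest below it.

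A small shift toward astrocytes ran through the members. The ratio was lower in neurons in 448 members (74.5%), where 70.6% of all tested transcripts and 71.1% of the tested transcripts with at least 1000 region b counts lay below 0. The median log2 change was -0.173 over the members, with quartiles of -0.38 and 0.001, beside -0.214 over all 8778 transcripts and -0.207 over the others with at least 1000 region b counts. The direction depended on how the regions were scaled. With the totals of region a and region b as separate scales, which takes out a shift common to all transcripts, the median of the members was 0.0637 and that of all transcripts 0.025, and 233 members lay below 0. The astrocyte and neuron values did not overlap in 233 members with higher astrocyte levels (38.8%), where 34.2% of all tested did so, and in 41 with higher neuron levels (6.82%), where 9.11% did so.

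Per library, the median level of region a over the members was 30.4% and 32.9% of region b in astrocyte pools 1 and 2, against 28.9% and 27.6% in neuron pools 1 and 2. Over the other transcripts with at least 1000 region b counts it was 3.91%, 4.13%, 3.47% and 3.39% in the same order. Both astrocyte pools thus lay above both neuron pools in members and others alike. Region a held 7.77% and 8.21% of all counts in the astrocyte and 6.99% and 6.75% in the neuron pools. With the members and their repeats left out it held 6.43%, 6.79%, 5.74% and 5.57%, still without overlap.

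Apart from a shift common to all members, which an SD leaves out, the members' ratios varied nearly as much within a cell type as between them. The SD over the members of the log2 difference in the a to b ratio was 0.306 between the astrocyte pools and 0.338 between the neuron pools. Between a neuron and an astrocyte library it was 0.35 to 0.39. Of the members, 414 held 20% or more in each library, 124 fell below it in 1 library, 57 in 2 and 6 in 3. More did so in neurons, with 88 and 109 members in neuron 1 and 2 against 36 and 23 in astrocyte 1 and 2. The lowest level of any member in any library was 10.7%. The median ratio of a member's highest to its lowest library was 1.41, and it exceeded 2 in 39 members. A median of 120 to 216 region a counts per member and library gave Wilson intervals with a median width of 4.47 to 6.83 percentage points to either side.

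The second comparison asked how the cell types differ in region b of the same transcripts. Region b was higher in neurons in 51 members and higher in astrocytes in 83, or 22.3% of the 601 together (108 sets, edgeR quasi-likelihood test adjusted over 18161 transcripts), where 15.8% of all tested transcripts were called. By direction, 8.49% of the members were called as higher in neurons and 13.8% as higher in astrocytes, where 3.49% and 12.3% of all tested were. Transcripts that reached 1000 region b counts, as every member did, were called in 17.7% of cases, 6.17% as higher in neurons and 11.6% as higher in astrocytes. Called changes of at least 2-fold numbered 11 toward neurons (1.83% of the members, beside 1.16% of all tested) and 57 toward astrocytes (9.48%, beside 9.17% of all tested). In such samples fewer tagged cells that hold a transcript and less of it per cell cannot be told apart.

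Toward astrocytes, ENSMUST00000034215 and ENSMUST00000034214 led. Region b of the first measured 1632 and 1899 counts for each 1000000 counts of the library (CPM) in the astrocyte and 219.8 and 99.74 CPM in the neuron pools, a log2 change of -3.60 (SE 0.374, edgeR adjusted p = 0.000749). Region b of the second measured 837.1 and 921 CPM against 107.8 and 56.26 CPM, a log2 change of -3.56 (SE 0.316, edgeR adjusted p = 0.000448). In both, every astrocyte library lay far above every neuron library, and neuron 1 lay well above neuron 2. Their region a moved with region b, and the log2 changes of the ratio were 0.17 and 0.27 (edgeR adjusted p = 0.767 and 0.622).

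Toward neurons, ENSMUST00000051087 led, with region b at 68.15 and 64.5 CPM in the astrocyte and 246 and 642.2 CPM in neuron 1 and 2, a log2 change of 2.60 (SE 0.384, edgeR adjusted p = 0.00343). ENSMUST00000034076 measured 50.46 and 47.81 CPM against 157.3 and 260.9 CPM, a log2 change of 1.95 (SE 0.23, edgeR adjusted p = 0.00126). In both, the neuron pools lay above the astrocyte pools and far apart from each other. Region a of the first was 27.36% and 25.68% of region b in the astrocyte and 20.35% and 19.8% in the neuron pools, and that of the second 41.58% and 37.27% against 33.16% and 41.49%. Neither ratio passed the test (edgeR adjusted p = 0.469 and 0.934).

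How the region b calls split between the cell types changed with scaling and with single libraries. Library totals, here of region b alone, in place of TMM factors moved the median log2 change of all transcripts from 0.032 to 0.156. They gave 83 members higher in neurons and 78 higher in astrocytes (13.8% and 13%), where 6.78% and 10.5% of all tested were called. Without astrocyte 1 or 2 there were 73 and 72 calls (12.1% and 12% of the members, beside 9.76% and 8.74% of all tested). Without neuron 1 or 2 there were 350 and 323 (58.2% and 53.7%, beside 45.1% and 31.9% of all tested), so the count over all transcripts moved with that of the members.

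Region a counts themselves were scaled by the same TMM factors, but with library totals of all regions instead of region b totals. They changed in 136 members (22.6%, 108 sets), by an edgeR quasi-likelihood test adjusted over 9126 transcripts. Of these, 27 were higher in neurons and 109 higher in astrocytes. Of all tested 15.9% were called, 2.09% as higher in neurons and 13.8% as higher in astrocytes, beside 4.49% and 18.1% of the members. Of those tested with 1000 or more region b counts 16.5% were called, 2.64% and 13.8% by direction. Of the 83 members with region b higher in astrocytes, 81 (97.6%) also had region a higher in astrocytes. Of the 51 with region b higher in neurons, 23 (45.1%) also had region a higher in neurons and 28 had no called change of region a. Over all transcripts tested for both regions with at least 1000 region b counts, members included, these shares were 569 of 700 (81.3%) and 90 of 315 (28.6%). By the rule the members have more region a counts than the others. No member was called in opposite directions for the 2 regions, and 435 were called for neither and for no ratio. The regions share their libraries, so these counts are a description.

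**Figure D4:**
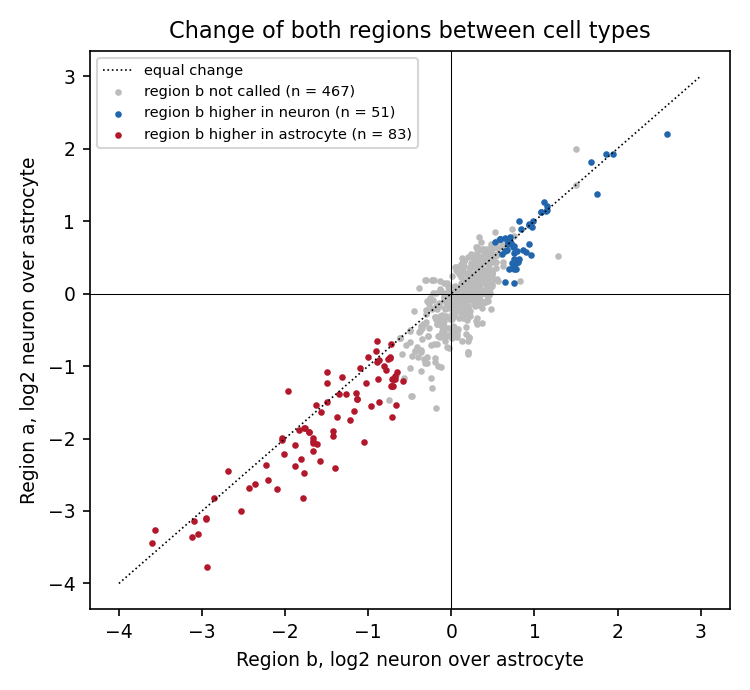
Log2 change between neuron and astrocyte pools of region b (horizontal axis) and region a (vertical axis) for the 601 members; blue points have region b called higher in neurons (51), red points higher in astrocytes (83), grey points are not called (467), and the dotted line marks equal change. The points run along the line of equal change.

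The largest change of region a was in ENSMUST00000055676, at 127.1 and 131 CPM in the astrocyte and 12.07 and 8.727 CPM in the neuron pools, a log2 change of -3.77 (SE 0.267, edgeR adjusted p = 3.22e-07). Its region b fell as well (log2 change -2.94, edgeR adjusted p = 0.000436), by less. Region a was 47.64% and 45.12% of region b in the astrocyte and 25.14% and 26.73% in the neuron pools, a log2 change of the ratio of -0.83 that just missed the threshold (edgeR adjusted p = 0.0601). Toward neurons, ENSMUST00000051087 led in region a as in region b (log2 change 2.21, SE 0.333, edgeR adjusted p = 0.000189). ENSMUST00000065360, next in rank, had region a at 10.42 and 10.29 CPM in the astrocyte and 23.02 and 66.31 CPM in the neuron pools, a log2 change of 1.99 (SE 0.357, edgeR adjusted p = 0.000801; DESeq2 adjusted p = 0.0582). Its 2 neuron pools lay far apart, and without neuron 2 its log2 change was 1.05 (edgeR adjusted p = 0.00426). Among the transcripts with more region a than region b counts, region a of ENSMUST00000026221 was higher in astrocytes (log2 change -2.32, edgeR adjusted p = 1.1e-05), and so was its region b (log2 change -1.58, edgeR adjusted p = 0.000474). Its ratio lay at the threshold (log2 change -0.76, SE 0.209, edgeR adjusted p = 0.0502).

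The split of the region a calls also moved with the scaling. Library totals gave 51 members higher in neurons and 93 higher in astrocytes (8.49% and 15.5%, beside 3.31% and 11.3% of all tested). TMM factors taken from region a gave 78 and 89 (13% and 14.8%, beside 4.44% and 10.5% of all tested). Without astrocyte 1 or 2 there were 93 and 72 calls (15.5% and 12% of the members, beside 10.4% and 8.08% of all tested), and without neuron 1 or 2 there were 190 and 167 (31.6% and 27.8%, beside 16.8% and 11.6%).

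Relative to region b, regions c and d held more counts in the members than in the others. Region b is the denominator here as in the rule, and its median was 1812 counts in the members and 2136 in the others, so these shares are a description. The median of region d was 0.255% of region b in the members and 0.0883% in the 6678 other transcripts with at least 1000 region b counts. Region d reached 1% of region b in 81 members (13.5%) and in 294 others (4.4%), and 10% in 9 members (1.5%) and 41 others (0.614%). No region d count was found in 113 members (18.8%) and 1863 others (27.9%). In each library region d of all members together was 0.743% to 0.807% of their region b, and that of the others 0.297% to 0.339%, so that the ranges did not meet. For region c the medians were 0.0671% and 0.0369%, and 37 members (6.16%) against 208 others (3.12%) reached 1%. No region c count was found in 228 members (37.9%) and 2839 others (42.5%). Within classes of like region b counts the direction was the same for region d. The median region d count was 3 in members and 1 in others with 1000 to under 2000 region b counts, whose median region b counts were 1368 and 1387, and 7 against 3 in those from 2000 to under 5000, with 2816 and 2873. For region c these medians were 1 against 0 and 2 against 1, too few counts to compare. Other lists were not compared in this way, and these differences were not tested.

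**Figure D5:**
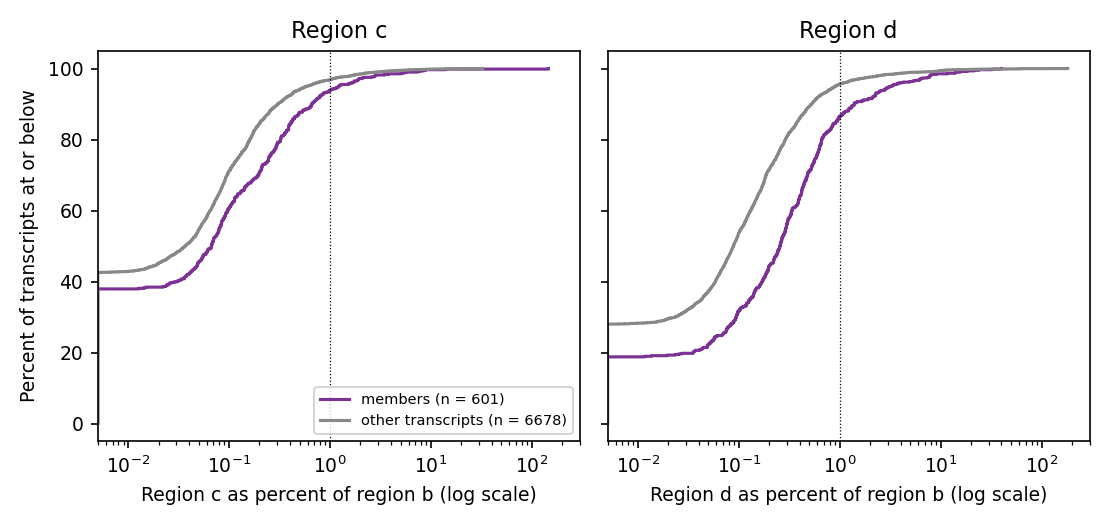
Percent of transcripts (vertical axis) whose region c (left) or region d (right) count is at or below a given percentage of their region b count (horizontal axis, log scale); purple lines are the 601 members, grey lines the 6678 other transcripts with at least 1000 region b counts, transcripts at 0 are drawn at the left edge, and the dotted line marks 1%. The purple lines lie below the grey ones over most of the range, with 13.5% of members and 4.4% of others above 1% for region d.

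A few members had high counts in 3 regions. ENSMUST00000173041 held 4677 region c counts beside 3206 in region b and 951 in region a, with region c at 135% and 129.5% of region b in the astrocyte and 194.4% and 177.6% in the neuron pools. It alone moved region c of all members together, from 0.329% of region b without it to 0.603%. ENSMUST00000113025 had the highest region d, at 37.55% and 44.05% of region b in the astrocyte and 41.32% and 39.39% in the neuron pools, a level that all pools shared. ENSMUST00000093773, one of those with more region a than region b counts, had region d at 22.46%, 20.88%, 20.71% and 22.12% in astrocyte 1 and 2 and neuron 1 and 2. ENSMUST00000000094 had region a at 67.97%, region c at 7.46% and region d at 18.29% of region b over all libraries.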

How the data were processed

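Footprints were counted by the authors per transcript region; the deposited values are whole-number counts with no normalization visible, and a region without a line was read as 0. The submitters' processing notes list edgeR, bedtools, STAR 2.3.1z8, Bowtie2 2.2.2, FastQC 0.11.2 and Trimmomatic 0.32, without role or order. For build, annotation, use of strand and multiply mapped fragments, the steps were not given in the sources used here; fragments shared by overlapping transcripts may be counted more than once. The members and lists were chosen with earlier results of these data known. Tests used edgeR 4.0.16 (R 4.3.3) with filterByExpr (minimum count 10), TMM factors of region b, and Benjamini-Hochberg adjustment over all transcripts tested at a threshold of 0.05. Library totals in the region b fits were totals of region b, and in the region a and ratio fits totals of all regions. The ratio model had a term per library, a region term and a term for region by cell type. Log2 ratios of single libraries had 0.5 added to each count. Standard errors divide the log2 change by the root of F. Scripts were tested on simulated data with a dispersion of 0.02. Of 2-fold changes, the ratio test recovered 38%, the region b test 78% and the region a test 82%. Of 4-fold changes they recovered 99%, 100% and 100%. The rule for named transcripts took those with the highest ratio, the most region a counts and the largest called changes, 1 per set; as no gene names were at hand, 2 per direction are printed, and other identifiers were chosen after their values were seen. The lists of known upstream reading frame genes, ribosomal proteins, translation factors and cell type markers needed gene names and were not used. Alternatives were DESeq2 1.42.0, other filters and scalings, 1 transcript per set and each library left out.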

Additional observations from a re-analysis of the deposited data

How the results depend on the processing

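Of the 7 members called for the ratio (1.16%, beside 1.08% of all tested), DESeq2 left 1 (0.166%, beside 0.114%). Each region's own total gave 1 (0.166%, beside 0.137%) and no filter 4 (0.666%, beside 0.37%). A mean count of at least 20 gave 14 (2.33%, beside 2.1%). A minimum of 100 region b counts in each library gave 12 (2%, beside 1.61%). Counted as sets, an alternative chosen after seeing the data, the 7 were 5. With 1 library left out the ratio gave 0 to 14 calls, and its median lay between -0.2 and -0.14; each region's own total turned the median to 0.0637, by its construction. In the fits without a library the lone library was assumed to vary like the other pair. For region b, 1 library left out gave 72 to 350 calls, 13 to 204 higher in neurons and 57 to 146 higher in astrocytes, with medians of 0.0887 to 0.154; library totals gave 83 members higher in neurons and a median of 0.279. For region a, 1 library left out gave 72 to 190 calls, 7 to 60 higher in neurons and 65 to 130 higher in astrocytes, with medians of -0.0852 to 0.0401, so the median of -0.013 has no stable sign. DESeq2 gave 15 members with region a higher in neurons (2.5%, beside 0.855% of all tested). Library totals gave 51 (8.49%, beside 3.31%) with a median of 0.113, and TMM factors from region a 78 (13%, beside 4.44%) with a median of 0.183. ENSMUST00000055518 lost its ratio call with DESeq2 and without astrocyte 1 or astrocyte 2 (adjusted p = 0.235, 0.323 and 0.611, with a log2 change of -1.10 each), with each region's own total (-0.867, adjusted p = 0.166) and without neuron 2 (-0.914, adjusted p = 0.2). Apart from the points named as construction, the cause was not tested.

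The number of members follows the rule. It was 257 (median 28%) at 2000 region b counts, 1146 at 500, 1695 (median 16.3%) at a ratio of 0.10, 90 (median 67.3%) at 0.50 and 414 (median 34.8%) with 0.20 required in each library. Without 1 library it was 366 to 473, with medians from 27.6% to 29.8%, in part because fewer transcripts then reach the minimum of 1000 counts. Of the 601, 332 remained without neuron 2. Same-numbered libraries were not shown to be pairs: their deviations correlated at r = -0.0412 for the ratio and r = -0.0864 for region b. The replicate block gave 5 calls for the ratio (0.832% of the members, beside 0.957% of all tested) and 137 for region b (22.8%, beside 17.2%). For region a it gave 126 (21%, beside 16.3%) and moved the median to -0.0228. Depth limits the ratio, since a member has as few as 19 region a counts in a library.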
